A study of Drosophila melanogaster with 12 samples.

Results

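The comparison followed here sets fly heads that were at the same temperature, 25 °C, at the same hours of the day, but that had come there by different thermal histories. Its members are 6 of the 12 arrays of the wild-type time course: the arrays of hours 14, 18 and 22 of the CA (cold/ambient) day, called CA14, CA18 and CA22, and those of the same hours of the AA (ambient/ambient) day, called AA14, AA18 and AA22. They were taken by their titles and paired by hour. All flies were *y w*, which carry the recessive markers *yellow* and *white* and have an intact clock, and were kept in constant darkness. CA flies were held at 18 °C from hour 0 to hour 12, the cryophase, and stepped to 25 °C at hour 12, the start of the thermophase. CA14, CA18 and CA22 thus stood 2, 6 and 10 h after the step. AA flies stayed at 25 °C through the following day, so that AA14, AA18 and AA22, the subjective thermophase, stood 26, 30 and 34 h after the same kind of step. The AA day is also 1 day later, and an extra day in the dark cannot be told apart from the time since the cold. Heads of many flies were pooled for each hour, separated from frozen flies by sieving, and hybridised to 1 Affymetrix array per hour and day. The sources used here do not say whether the hours came from separate cultures, so the p-values below measure only the spread between these arrays. Of 13966 probe sets other than controls, 11137 had more than 6 of their 12 values above the 20th percentile of the table, 2.93 (log2), and entered the tests. All differences are CA minus AA on the log2 scale.

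Flies do not hold their own body temperature, and warming or cooling moves metabolism, protein folding and translation along with the air around them. Daily thermocycles also set the circadian clock. In its core loop CLOCK and CYCLE switch on *period*, *timeless*, *vrille*, *Pdp1* and *clockwork orange*, and the products of these genes feed back on CLOCK and CYCLE or on the gene *Clk*. The comparison asks which transcripts differ between flies that share temperature and hour but not their recent past.

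The CA and AA arrays correlated across probe sets with r = 0.990 at hour 14, 0.995 at hour 18 and 0.994 at hour 22, and array medians lay between 4.35 and 4.39. Over all pairs of the 12 arrays r lay between 0.974 and 0.995, so a high r is not particular to arrays of the same hour and temperature. Eye markers were strong on all 6 arrays: *Arr2*, the arrestin of photoreceptors, lay between 11.44 and 11.81, and the lens gene *retinin* between 10.51 and 11.03. Neuron markers were lower. *elav* lay between 4.13 (AA14) and 5.37, *nSyb* between 5.44 and 6.86, and *brp* between 4.64 and 5.07. The yolk protein gene *Yp1*, made by the female fat body, lay between 13.61 and 13.8. Transcripts of the gut and of the male reproductive tract were present too. The mean score of 31 gut protease and lysozyme transcripts, centred on the 12 arrays, was 0.36, −0.29 and 0.76 at CA14, CA18 and CA22 and 0.13, 0.10 and 0.29 at AA14, AA18 and AA22, and the score of 15 male transcripts was 0.28, −0.34 and 0.66 against 0.17, 0.01 and 0.46. Of the ovary markers, *osk* and *bam* stayed below the filter, while the eggshell genes *Vm26Aa* and *Cp36* passed it, at 6.24 to 6.47 and 5.78 to 6.24 on the late arrays. In the control gene *eIF-4a* the 3' probe set exceeded the 5' probe set, a sign of RNA integrity and labelling, by 1.85, 1.55 and 3.23 on the CA arrays and by 2.39, 1.48 and 3.08 on the AA arrays. The same difference in the actin control was 1.52, 1.2 and 1.94 against 1.79, 1.17 and 1.25, and in the GAPDH control 2.29, 2.52 and 2.47 against 2.57, 2.78 and 2.32. The gap within a pair was thus widest at hour 14 for *eIF-4a*, at hour 22 for actin, and about alike at hours 14 and 18 for GAPDH.

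No transcript passed the test for a different level between CA and AA flies in the late hours. In limma with the hour of day as a block, 0 of 11137 probe sets (0%) reached an adjusted p of 0.05 or of 0.2, and the smallest adjusted p was 0.523. The median difference over all probe sets was −0.01 and its median standard error 0.087. At an unadjusted p under 0.05 there were 775 probe sets (6.96%), of which 490 (4.4%) were higher in CA and 285 (2.56%) lower, a split that turned with array weights (1013 against 1157). By the sign of the mean difference alone, 45.5% of all probe sets lay above 0 and 54.5% below. The CA arrays lay wholly above the AA arrays in 358 probe sets (3.21%) and wholly below in 473 (4.25%), and the difference had a single sign at all 3 hours in 1436 (12.9%, CA higher) and 1728 (15.5%, CA lower). The same fit compared the early hours 2, 6 and 10, when CA flies were at 18 °C and AA flies at 25 °C. There 15 probe sets (0.135%) passed at 0.05, 833 (7.48%) at 0.2 and 1795 (16.1%) at an unadjusted p under 0.05. The early count depended on the block, and a fit of 4 group means without it called 0 probe sets early as well as late. Every late value given below for a single gene is therefore a description of 6 arrays and none of them passed a test over all genes.

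The size of the differences changed with the hour. Their standard deviation over the 11137 probe sets was 0.250 at hour 14, 2 h after the step, 0.170 at hour 18 and 0.181 at hour 22. A difference of more than 0.5 was found in 563 probe sets at hour 14, 66 at hour 18 and 155 at hour 22. At hour 14 the split was unequal, with 444 probe sets higher in CA and 119 lower. At hour 18 the split was 9 against 57 and at hour 22 it was 130 against 25. AA14 was the lowest of the 6 late arrays in 297 of the 444 (66.9%), and CA14 was the highest in 238 (53.6%). The deviations of the 2 arrays of an hour from their own day's mean correlated with r = 0.608 at hour 18 and 0.593 at hour 22 but with r = −0.128 at hour 14, and in the early hours with r = 0.306, 0.003 and 0.484 at hours 2, 6 and 10. Neither hour 14 nor hour 6 thus showed the positive correlation of the other 4 pairs. A test for a steady change of the difference per 4 h asked whether the signed difference rose or fell with time at 25 °C. It passed at 0.05 after adjustment in 0 probe sets (0%), with 722 (6.48%) at an unadjusted p under 0.05. A rise or fall alone does not tell whether the days drew together, drew apart or crossed.

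The transcripts with the smallest late p on the CA-higher side included a gene of the nucleolus, a gene of mRNA transport and a gene of a membrane channel. *Nopp140*, a nucleolar phosphoprotein, read 4.59, 4.52 and 5.04 at CA14, CA18 and CA22 and 3.88, 4.16 and 4.13 at the same AA hours. All CA values lay above all AA values. The mean difference was 0.66 ± 0.11 (SE), a 1.58-fold higher level (limma, unadjusted p = 0.000111, adjusted 0.523), and in the early hours it was 0.07. *Fib* (fibrillarin, the nucleolar methyltransferase of ribosomal RNA) had 6.99, 7.02 and 7.52 against 6.66, 6.73 and 6.94, again with no overlap and a difference of 0.39 ± 0.089. *Non1*, a further gene of the nucleolar list, went the other way, with 7.88, 8.0 and 7.90 against 8.25, 8.13 and 8.13. Of the 8 nucleolar genes measured, 6 lay higher and 2 lower.

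*egl*, which links mRNAs to the dynein motor, read 5.42, 5.18 and 5.49 in CA and 4.72, 4.95 and 4.68 in AA (difference 0.58 ± 0.12). *Pu*, GTP cyclohydrolase of the pteridine pathway that supplies eye pigments and a cofactor of dopamine synthesis, read 7.55, 7.33 and 7.33 against 6.90, 7.07 and 6.88 (0.46 ± 0.093). *Sam-S*, which makes the methyl donor S-adenosylmethionine, read 10.22, 9.84 and 10.40 against 9.57, 9.38 and 9.82 (0.57 ± 0.12). Each of these was higher in CA at all 3 hours, and each had no overlap between the days. In the early hours the differences of *egl* and *Pu* were −0.11 and −0.02, and their late minus early difference did not pass its own test (limma, adjusted p = 0.276 for *egl* and 0.346 for *Pu*). The chloride channel gene *ClC-a* read 5.01, 5.08 and 4.92 against 4.60, 4.80 and 4.34, with an early difference of −0.12. *CG6983* and *CG6282* lay 0.52 ± 0.092 and 0.45 ± 0.086 higher, the latter without overlap.

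*Nckx30C*, a sodium, calcium and potassium exchanger of photoreceptors, read 6.08, 5.92 and 6.21 against 5.66, 5.46 and 5.87 (0.40 ± 0.082). Here the early difference was of like size, 0.33, and CA lay above AA at all 6 hours of the day. This was the case for 473 of all probe sets (4.25%), and CA lay below AA at all 6 hours in 360 (3.23%). For such transcripts the days differed in the same direction before and after the step.

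Among transcripts with a single gene symbol and a higher level in CA at all 3 hours, the 5 largest late differences were widest at hour 14. *larp*, an RNA-binding protein that acts on mRNA stability and translation, read 5.60, 5.37 and 5.46 in CA and 3.94, 5.02 and 4.77 in AA. *yps*, a Y-box RNA-binding protein, read 8.47, 8.22 and 8.04 against 6.89, 7.87 and 7.54. *Hsc70-4*, the constitutive Hsp70 chaperone of the cytosol, read 10.03, 10.01 and 9.72 against 8.41, 9.68 and 9.38. In each of them AA14 was the lowest array and the other AA values were closer to CA. The mean differences of 0.90 ± 0.20, 0.81 ± 0.20 and 0.76 ± 0.21 became 0.52, 0.43 and 0.33 without hour 14. *Chchd2*, a mitochondrial protein, behaved likewise (0.74 ± 0.20, and 0.41 without hour 14). *CG13928* had 0.71 ± 0.29, and 0.09 without hour 14.

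**Figure D1:**
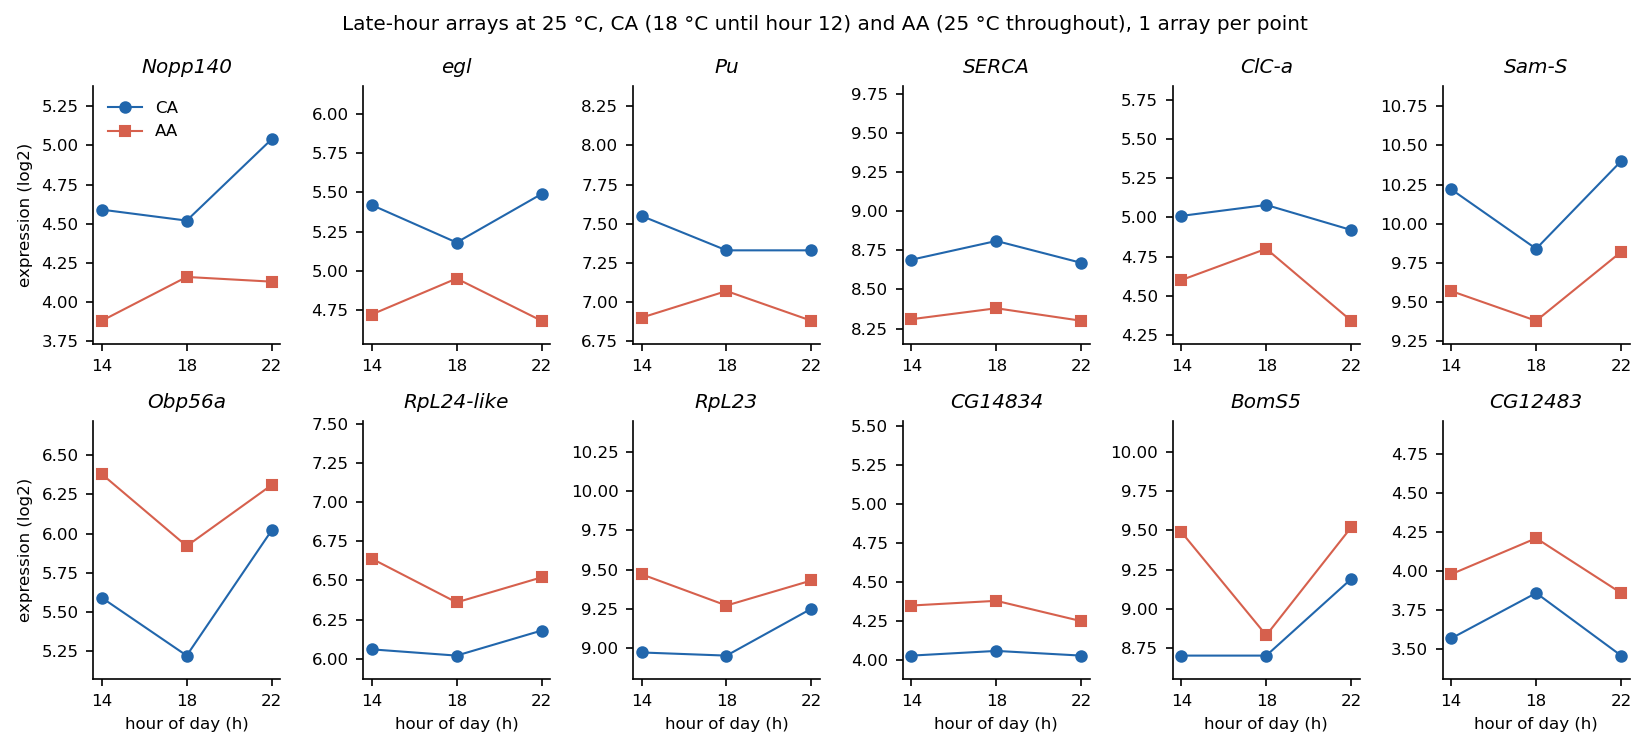
Expression (log2) of 12 transcripts at hours 14, 18 and 22 on the CA day (blue circles) and the AA day (red squares), 1 array per point and the same span on every vertical axis. The upper 6 lay higher in CA at all 3 hours (*Nopp140* by 0.66 on average) and the lower 6 lay lower at all 3 hours (*Obp56a* by −0.59).

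On the CA-lower side the transcripts named by their p or their size were of several kinds. *Obp56a*, an odorant-binding protein, read 5.59, 5.22 and 6.02 in CA and 6.38, 5.92 and 6.31 in AA. CA lay lower at each hour, but CA22 exceeded AA18, so the groups overlapped. The mean difference was −0.59 ± 0.12 (limma, unadjusted p = 0.000704, adjusted 0.523). *Phk-3*, a secreted pherokine, read 6.0, 5.46 and 5.86 against 6.22, 5.97 and 6.15 (−0.34 ± 0.080). *BomS5*, a short immune-induced Bomanin peptide, read 8.70, 8.70 and 9.19 against 9.49, 8.83 and 9.52 (−0.42 ± 0.11, and −0.23 without hour 14), and the mucin gene *Muc12Ea* read 3.52, 3.76 and 3.55 against 4.08, 3.92 and 4.06 (−0.41 ± 0.13). *Muc12Ea*, the cadherin gene *Cad86C* (−0.31 ± 0.074) and *CG14834* (−0.29 ± 0.072) had no overlap between the days. *CG12483* had the smallest p on this side, with 3.57, 3.86 and 3.46 against 3.98, 4.21 and 3.86 (−0.39 ± 0.069), and it lay lower in CA at all 6 hours of the day.

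Cytosolic ribosomal protein transcripts lay lower in CA as a list. Of 36 measured members 32 had a negative late difference, against 54.5% of all probe sets, and 11 had an unadjusted p under 0.05 (2.56% of all probe sets on that side), with none higher at that level. None passed the adjusted test. The median difference was −0.13 against −0.01 over all probe sets, and it was −0.27, −0.13 and −0.07 at hours 14, 18 and 22. At all 3 hours 26 of the 36 were lower (15.5% of all probe sets), and in 6 the CA arrays lay wholly below the AA arrays (4.25% of all probe sets). *RpL23*, of the large subunit, read 8.97, 8.95 and 9.25 in CA and 9.47, 9.27 and 9.43 in AA, so that its CA arrays lay wholly below its AA arrays (−0.33 ± 0.079). *RpL24-like*, a relative of RpL24 that serves in making the large subunit, read 6.06, 6.02 and 6.18 against 6.64, 6.36 and 6.52, without overlap (−0.42 ± 0.093). *RpS12* (9.32, 8.95 and 9.58 against 9.90, 9.26 and 9.83), *RpL32* (−0.29 ± 0.082) and *RpS29* (−0.52 ± 0.17, and −0.28 without hour 14) were lower at each hour but overlapped between the days. In the early hours, with CA at 18 °C, the median of the list was 0.05, and without hour 14 the late median was −0.10, with 33 of 36 below 0. The list is one of abundant transcripts, with a median level of 9.94, and over the third of all probe sets with the highest level the late median was 0.005.

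The 63 mitochondrial ribosomal protein transcripts had 50 members below 0 (54.5% of all probe sets) and a median of −0.05, and 4 were lower (2.56% of all) and none higher at an unadjusted p under 0.05. This rested on hour 14, where the median was −0.23, and without that hour the median was 0.02 and 38 lay above 0. *mRpL20* had the smallest p, with −0.27 ± 0.078. Respiratory chain and ATP synthase subunits (62 measured, median −0.03) and proteasome subunits (34 measured, 0.02) stayed near the median of all probe sets.

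**Figure D2:**
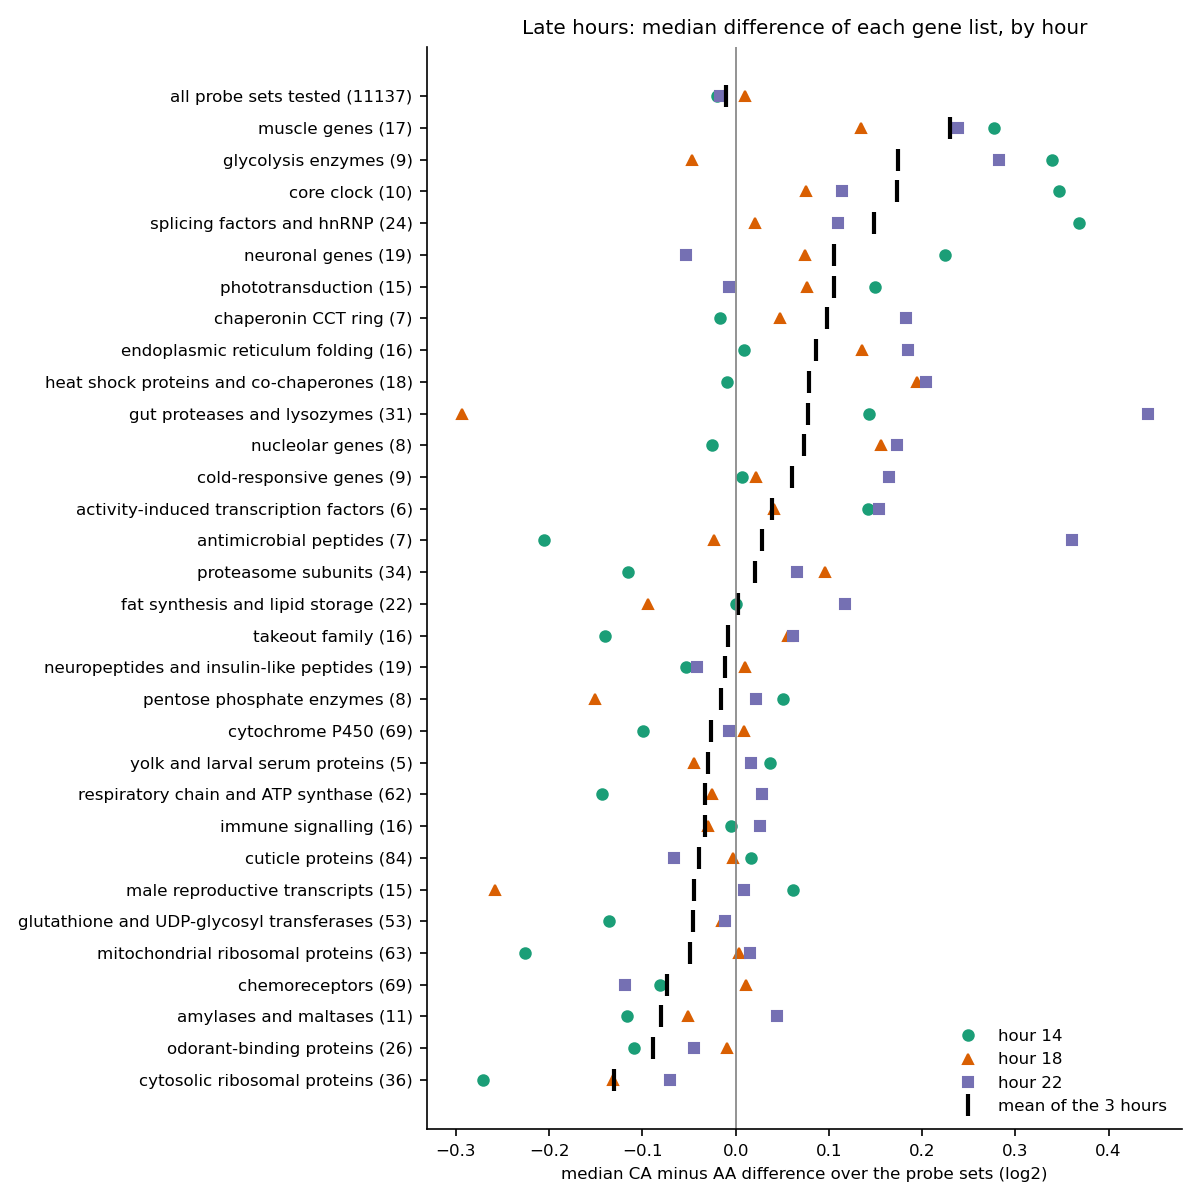
Median CA minus AA difference (log2) of the 31 gene lists and of all 11137 probe sets at hours 14 (circles), 18 (triangles) and 22 (squares), with the median of the late means as a black bar and the number of measured genes in parentheses. The median is 0.23 for muscle genes and −0.13 for cytosolic ribosomal proteins, and within a list the hours can lie on both sides of 0, as for gut proteases and lysozymes (−0.29 to 0.44).

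Muscle transcripts had a median of 0.23, with 0.28, 0.13 and 0.24 at the 3 hours. Of 17 measured members 13 were above 0 (45.5% of all probe sets), 11 of them at all 3 hours (12.9% of all probe sets). An unadjusted p under 0.05 was found in 8, against 4.4% of all probe sets on that side. *SERCA*, the calcium pump of the sarcoplasmic and endoplasmic reticulum, read 8.69, 8.81 and 8.67 in CA and 8.31, 8.38 and 8.30 in AA, with no overlap and a difference of 0.39 ± 0.084 (early −0.11). *Act79B*, a muscle actin, read 7.14, 6.90 and 7.01 against 6.55, 6.55 and 6.65 (0.43 ± 0.087), and *Act87E* had 0.32 ± 0.086. Both actins are read by probe sets that the array's design marks as shared by a gene family, so their signals may include other actins. *Zasp66*, a protein of the sarcomere's Z-disc, had 0.29 ± 0.081. Without hour 14 the median was 0.15, and 14 of 17 members lay above 0.

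Markers of body tissue moved with some of these hours. *Act88F*, the actin of the flight muscle in the thorax, did not pass the filter and read 4.04, 2.89 and 5.73 at CA14, CA18 and CA22 against 2.78, 2.72 and 2.90 in AA. *TpnC41C*, a troponin C, read 3.78, 3.60 and 4.36 against 3.92, 3.92 and 4.11. The flight muscle gene *fln* (flightin) read 2.79, 2.57 and 3.08 against 2.64, 2.39 and 2.37, and *TpnC4* read 2.36, 1.95 and 2.62 against 2.17, 1.97 and 2.09, both below the filter. CA22 was the highest array in all 4, by far less in the last 3 than in *Act88F*, and *TpnC41C* was lower in CA at hours 14 and 18. Other muscle genes looked at did not all follow. *Mlc2* read 10.36, 10.33 and 10.13 against 9.68, 10.05 and 9.88, and *Mf* 9.17, 8.92 and 8.75 against 8.30, 8.66 and 8.74, both highest at CA14. The probe sets of *sals* were highest at CA18 and at CA14. *up* (5.20, 5.16 and 5.22 against 5.21, 5.21 and 5.17) and *Tm2* (5.39, 5.33 and 5.51 against 5.17, 5.29 and 5.41) were highest at CA22 by little. The gut list had medians of 0.14, −0.29 and 0.44 at hours 14, 18 and 22, with 21 of 31 members above 0 in the mean and 16 without hour 14, and the male list had 0.06, −0.26 and 0.01. Only *Jon44E*, a gut serine protease, reached an unadjusted p under 0.05 among the gut genes (0.40 ± 0.13). At hour 18 the gut and male medians were lower in CA while the muscle median was 0.13 higher, and *SERCA* and *Act79B* were higher in CA at that hour by 0.43 and 0.35. In bulk heads more tissue of a type and more RNA per cell cannot be told apart. The part of carried-over tissue in the muscle values was not tested beyond these levels.

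Most members of both protein folding lists were above 0 in the late hours, where 45.5% of all probe sets were. Of 18 heat shock proteins and co-chaperones 13 were above 0, with a median of 0.08, and of 16 folding genes of the endoplasmic reticulum 13 were above 0, with a median of 0.09. In each list 3 members were higher at an unadjusted p under 0.05 (4.4% of all probe sets), and 1 heat shock gene, *Hsp27*, was lower at that level. At hours 14, 18 and 22 the medians were −0.01, 0.19 and 0.20 for the heat shock list and 0.01, 0.14 and 0.19 for the endoplasmic reticulum list. The list medians were thus larger at hours 18 and 22, and without hour 14 they were 0.21 and 0.17. Single members did not all follow the medians. The differences at hours 14, 18 and 22 were 1.61, 0.33 and 0.34 for *Hsc70-4* and 0.38, 0.25 and 0.21 for *DnaJ-1*. For *Stip1* they were 0.36, 0.21 and 0.55. *DnaJ-1*, an Hsp40 co-chaperone, read 7.08, 7.17 and 6.88 in CA against 6.70, 6.92 and 6.68 in AA, higher at each hour with overlap only between CA22 and AA18 (0.28 ± 0.076). *Stip1*, which joins Hsp70 and Hsp90, read 6.17, 6.17 and 6.28 against 5.81, 5.96 and 5.74, without overlap (0.37 ± 0.13). In the early hours both had been lower in CA, by −0.52 and −0.60. *DnaJ-1* was 1 of the 5 probe sets that passed on that side in the early comparison, and its late minus early difference of 0.795 had an adjusted p of 0.169 (limma).

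Other members of the folding lists differed less or the other way. *CCT2*, a subunit of the CCT chaperonin ring, read 7.71, 7.54 and 7.75 against 7.48, 7.38 and 7.22 (0.30 ± 0.10), and 5 of the 7 measured CCT subunits lay above 0 (4 without hour 14). The small heat shock protein gene *Hsp27* read 3.32, 3.25 and 3.43 against 3.57, 3.61 and 3.57 (−0.25 ± 0.077), a level near the filter, and it lay lower in CA at all 6 hours. *prtp*, a disulphide isomerase of the endoplasmic reticulum (0.29 ± 0.093), and the Bax inhibitor gene *BI-1* (0.17 ± 0.070) lay above AA at all 6 hours of the day. *Sec61beta*, of the channel through which new proteins enter the endoplasmic reticulum, had 0.25 ± 0.096 late (0.15 without hour 14) and −0.40 early.

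Transcripts of RNA processing lay higher in CA, chiefly at hour 14. Of 24 splicing factors and heterogeneous nuclear ribonucleoproteins 23 were above 0 in the mean, against 45.5% of all probe sets, and 5 had an unadjusted p under 0.05 (4.4% of all probe sets on that side). The median was 0.15, made up of 0.37 at hour 14, 0.02 at hour 18 and 0.11 at hour 22, and without hour 14 it was 0.05. *Hrb87F*, a heterogeneous nuclear ribonucleoprotein, read 4.68, 4.09 and 4.15 against 3.87, 3.88 and 3.81, without overlap (0.46 ± 0.12). *Psi*, a splicing regulator, read 4.50, 4.60 and 4.60 against 3.77, 4.25 and 4.47 (0.40 ± 0.12). *elav*, the RNA-binding protein of neurons, read 5.37, 5.05 and 5.19 against 4.13, 4.97 and 4.77 (0.58 ± 0.18), and the kinase gene *SRPK* had 0.47 ± 0.15. In *Psi*, *elav* and *SRPK* the lowest array was AA14. Without hour 14 the mean differences were 0.27 for *Hrb87F*, 0.23 for *Psi*, 0.24 for *elav* and 0.20 for *SRPK*.

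The neuronal list moved with the same array. Of 19 members 14 were above 0 (45.5% of all probe sets), and 11 without hour 14, and the median was 0.11 in all and 0.02 without hour 14. *VGlut*, the vesicular glutamate transporter, read 6.61, 6.45 and 6.32 against 5.27, 6.02 and 6.18 (0.63 ± 0.19, and 0.28 without hour 14), without overlap but with its widest gap at hour 14. *Sh*, a voltage-gated potassium channel, differed more evenly, with 4.51, 4.53 and 4.59 against 4.33, 4.18 and 4.43 (0.23 ± 0.074), and the calcium channel gene *cac* lay lower in CA, with 3.79, 3.70 and 3.79 against 4.10, 3.98 and 4.07 (−0.29 ± 0.083). The mean score of the neuronal list was −0.23 at AA14 and between −0.11 and 0.04 on the other late arrays. Among 15 phototransduction genes 11 were above 0 (45.5% of all probe sets), with a median of 0.11 that was 0.059 without hour 14 and −0.01 at hour 22, and *Arr1*, a photoreceptor arrestin, read 10.88, 10.79 and 10.80 against 10.73, 10.43 and 10.73 (0.19 ± 0.080).

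Chemoreceptor transcripts lay mostly below 0. Of 69 odorant, gustatory and ionotropic receptors 62 were below 0 (54.5% of all probe sets) and 58 without hour 14, with a median of −0.07, and 7 lay wholly below without overlap (4.25% of all probe sets). *Gr28b* read 3.02, 3.12 and 3.06 against 3.29, 3.27 and 3.40 (−0.26 ± 0.082) and *Or69a* had −0.18 ± 0.070. These are dim probe sets: 46 of the 69 were in the third of all probe sets with the lowest level, in which 59.3% lay below 0 and the median was −0.02. Odorant-binding proteins had a median of −0.09 with 17 of 26 below 0, and −0.02 with 14 of 26 below 0 without hour 14. Among them *Obp99b* had −0.20 ± 0.088 (−0.09 without hour 14) and the abundant *Obp56d* 0.20 ± 0.087. Of 53 glutathione and UDP-glycosyl transferases, enzymes of detoxification, 35 were below 0, and 5 of them, such as *GstE5* (−0.32 ± 0.11) and *GstE9* (−0.23 ± 0.082), had an unadjusted p under 0.05 (2.56% of all probe sets on that side). Without hour 14, 29 of the 53 were below 0, near the share of all probe sets, and their median went from −0.05 to −0.02. Cytochrome P450 genes, the other detoxification list, had 40 of 69 below 0, and 33 of 69 without hour 14. The cuticle list had 60 of 84 members below 0 with a median of −0.04, and 3 members were higher (4.4% of all probe sets) and 0 lower at an unadjusted p under 0.05, among them *Cpr49Ae* (6.05, 5.52 and 5.95 against 5.54, 5.28 and 5.51, 0.40 ± 0.095).

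Metabolic lists showed smaller or hour-bound values. All 9 glycolytic enzymes were above 0 in the mean, with a median of 0.17, but the medians were 0.34, −0.05 and 0.28 at the 3 hours and 0.06 without hour 14. *Gapdh1* read 11.08, 10.75 and 10.15 against 10.40, 10.90 and 9.86 and *Eno*, enolase, 9.78, 9.73 and 9.15 against 9.25, 9.72 and 8.91, so that the fall from hour 14 to hour 22 within a day exceeded the mean difference between days. *Hex-A*, hexokinase, was the member with an unadjusted p under 0.05 (0.24 ± 0.092). Fat synthesis and storage genes had 12 of 22 above 0 and a median of 0.003 late against 0.23 early. *SCAP*, the escort of the sterol-regulated factor SREBP (0.35 ± 0.093), and *Desat1*, a fatty acid desaturase (0.32 ± 0.12), lay higher, while *Lip3*, a lipase (−0.23 ± 0.074), and *mdy*, the enzyme of the last step of triglyceride synthesis (−0.24 ± 0.11, early 0.59), lay lower. *Desat1*, *Treh* (trehalase, 0.19 ± 0.078) and the cytochrome P450 gene *Cyp6d5* (0.27 ± 0.087) lay above AA at all 6 hours. *Mal-A7*, a maltase, had −0.26 ± 0.087 without overlap. Takeout-like, pentose phosphate, cytochrome P450, immune, neuropeptide and yolk lists had medians between −0.03 and −0.01, and antimicrobial peptides had 0.03 with hours at −0.21, −0.02 and 0.36. *DptB*, a diptericin, read 6.64, 6.91 and 7.81 against 7.40, 8.01 and 7.29. Amylases and maltases had −0.08, cold-responsive genes 0.06 and the CCT ring 0.10. Without hour 14 the medians were 0.048 for the takeout-like list, 0.146 for antimicrobial peptides, −0.047 for amylases and maltases, 0.093 for cold-responsive genes and 0.155 for the CCT ring. Of 6 activity-induced transcription factors 3 lay above 0 (median 0.04), among them *kay*, the fly Fos (0.45 ± 0.13, and 0.30 without hour 14), and *cbt* (0.23 ± 0.076). Among neuropeptides *Nplp3* lay higher (0.28 ± 0.12) and *Ilp2*, an insulin-like peptide of the brain, lower (−0.24 ± 0.10, and −0.11 without hour 14).

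The clock transcripts lay mostly at or above their AA levels in the late hours. Of 10 core clock genes 9 had a mean difference above 0 (45.5% of all probe sets), with a median of 0.17, and hours 14, 18 and 22 gave 0.35, 0.08 and 0.11. Without hour 14 the median was 0.05 and 8 were above 0. Only *vri* and *cwo* had the same sign at all 3 hours (12.9% of all probe sets, CA higher), and only they had no overlap (3.21% of all probe sets). *vri*, a repressor of *Clk*, read 7.51, 7.28 and 7.28 in CA and 7.14, 7.04 and 7.01 in AA (0.29 ± 0.074, unadjusted p = 0.00278, adjusted 0.523, limma), while its early difference was 0.00. *cwo* (clockwork orange), a repressor within the loop, read 5.37, 5.23 and 5.28 against 5.04, 4.76 and 5.02 (0.35 ± 0.11). It lay above AA at all 6 hours, with an early difference of 0.52. A second probe set for *cwo* read 5.08, 5.38 and 4.84 against 5.04, 5.08 and 4.97 and had a late difference of 0.07.

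*tim* read 6.52, 6.91 and 7.05 at CA14, CA18 and CA22 and 6.58, 6.59 and 6.39 at the AA hours. The days were level 2 h after the step and 0.66 apart at hour 22. The mean difference was 0.31 ± 0.18 (limma, unadjusted p = 0.112, adjusted p = 0.771), and the change per 4 h was 0.36 (limma, adjusted p = 0.781 for the change). A second *tim* probe set had 4.70, 5.20 and 4.18 against 4.20, 5.21 and 4.26 and did not show this course. *per* took the opposite course, with 6.22, 6.0 and 5.42 against 5.71, 5.86 and 5.48, so that its difference went from 0.51 to −0.06. *Clk* read 4.33, 4.10 and 4.75 against 3.93, 4.08 and 4.96, and *Pdp1* and the kinase gene *dco* (doubletime) were 0.40 and 0.45 higher at hour 14 and within 0.19 at the later hours. *cyc*, the photoreceptor gene of the clock *cry* and the light-signalling gene *jet* had late differences of 0.04, −0.03 and 0.02, below their standard errors of 0.072, 0.081 and 0.087.

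**Figure D3:**
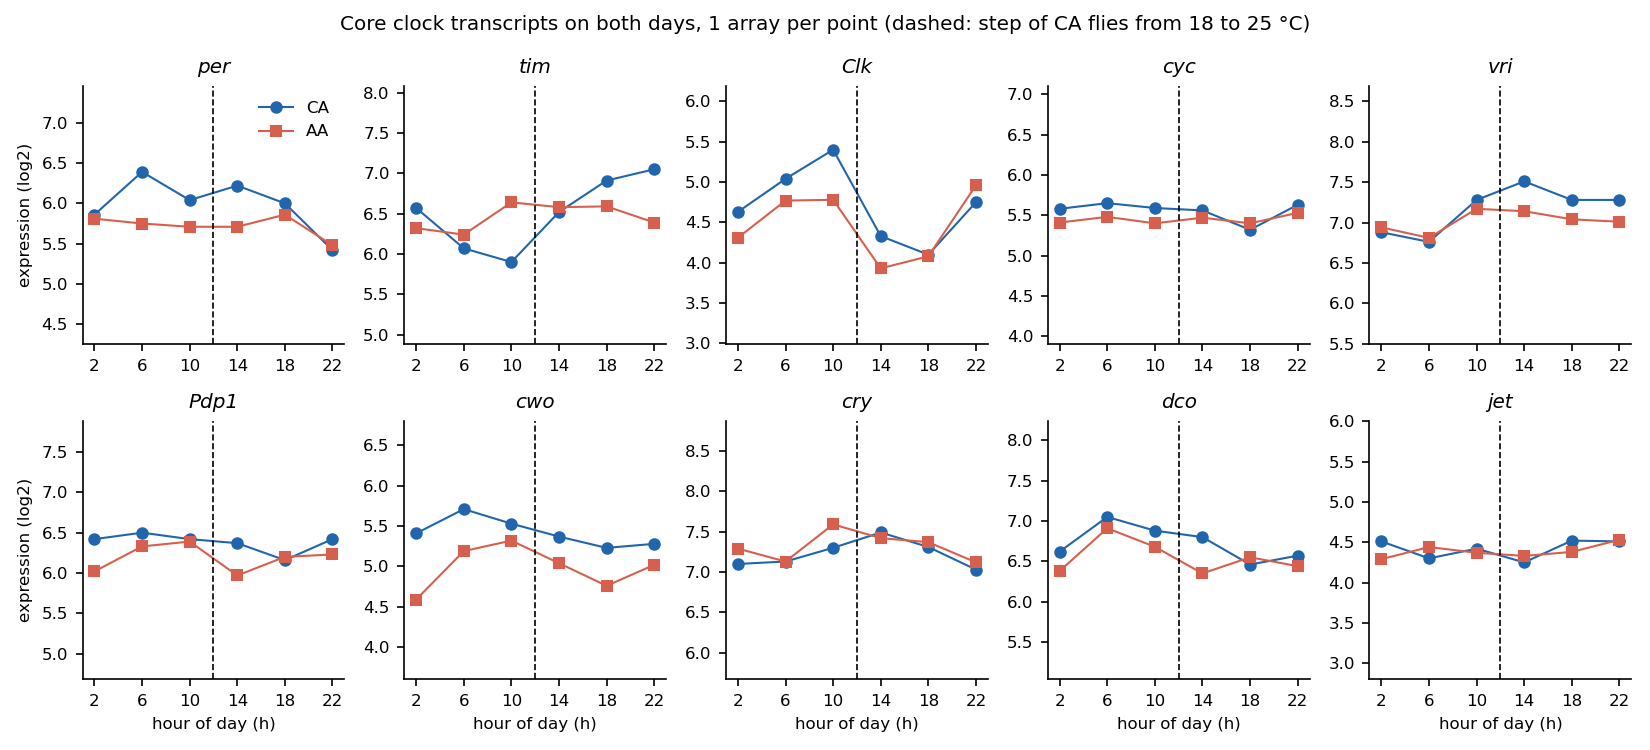
Expression (log2) of 10 core clock transcripts at hours 2 to 22 of the CA day (blue circles) and the AA day (red squares), 1 array per point, with the step of the CA flies to 25 °C as a dashed line. After the step *vri* and *cwo* stay above their AA levels (0.29 and 0.35 on average), *tim* parts from its AA level by hour 22, and *cyc*, *cry* and *jet* run close to theirs. None of these differences passed a test over all probe sets. The second probe sets of *cwo* and *tim*, not drawn, had differences of −0.13 and −0.09 at hour 22.

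The transcripts with the smallest early p lay, in the median, close to their AA levels once the CA flies were at 25 °C. The 50 probe sets with the smallest p on each side of the early comparison were chosen on arrays that the late comparison does not use, although both sets of arrays share the days. For the 50 higher at 18 °C, the values that chose them had a median of 0.48. Their late median was −0.003, with 24 above 0 and 26 below, and it was 0.01, 0.005 and 0.09 at hours 14, 18 and 22. For the 50 lower at 18 °C the choosing median was −0.55 and the late median 0.02, with 27 above 0 and 23 below. At hour 14, 2 h after the step, their median was 0.11, with 33 of 50 above 0, and at hour 18 it was −0.11 with 39 of 50 below 0. In 42 and 49 of the 50 the late difference, taken in the early direction, was under 0.5 of the early one. This count includes every late difference of the opposite sign, whatever its size. The early direction held at all 3 late hours in 16 of the first 50 (32%) and 9 of the second (18%), beside 12.9% and 15.5% of all probe sets. At an unadjusted p under 0.05 in the late hours, 11 of the first 50 kept their direction (4.4% of all probe sets on that side), and 2 of the second did (2.56%). Since the 15 early calls depended on the block and the arrays included, the choice was repeated under every alternative, and the late medians stayed between −0.07 and 0.14 for the first 50 and between −0.14 and 0.15 for the second.

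**Figure D4:**
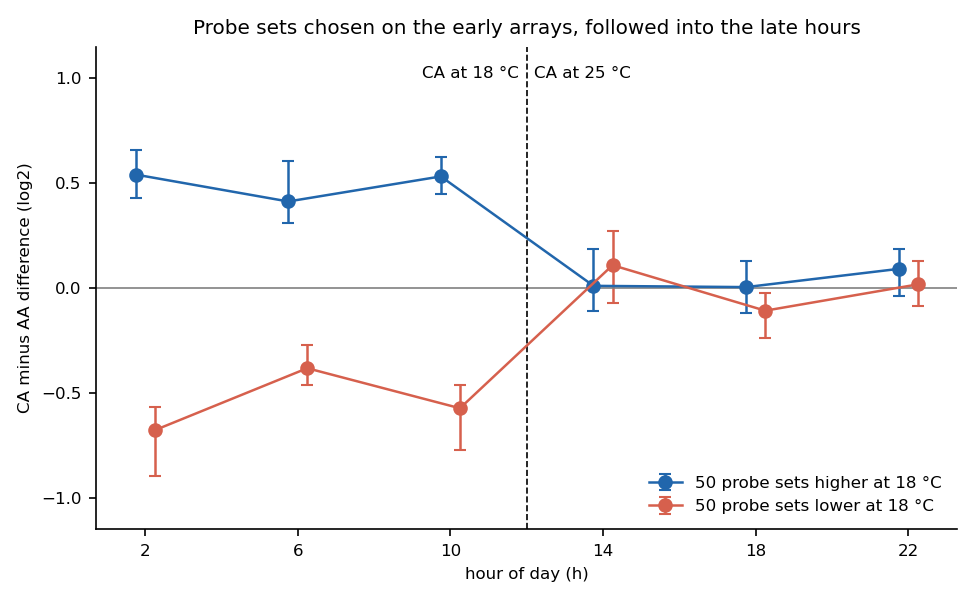
CA minus AA difference (log2) by hour of day for the 50 probe sets chosen as higher (blue) and the 50 chosen as lower (red) at 18 °C in the early arrays; points are medians and bars run from the lower to the upper quartile. The early values to the left of the dashed line chose the probe sets, and the late medians to its right lie between −0.11 and 0.11.

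Members of the early choice show the range of late behaviour. *SPARC*, a collagen-binding protein of the extracellular matrix, had an early difference of −0.86 and then read 9.76, 9.99 and 9.09 in CA and 9.75, 10.13 and 9.04 in AA. The late differences were 0.01, −0.13 and 0.05, while within each day the level fell from hour 18 to hour 22. *ACC*, acetyl-CoA carboxylase of fatty acid synthesis, had 0.55 early and 7.62, 7.19 and 7.36 against 7.65, 7.28 and 7.23 late. *Vago*, a secreted protein induced by viruses, had 0.57 early and 0.04 late, *U2af38*, the small subunit of the splicing factor U2AF, −0.57 and 0.09, and *CG4558* −0.49 and −0.02. *CG10553* and the lysosome-positioning gene *BORCS5* kept their early sign at each late hour, with 0.86 early and 0.17 late for the former and −0.44 and −0.15 for the latter. *NAT1*, a translation factor, had 0.54 early and −0.17 late and lay lower in CA at each late hour.

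The clearest crossing was that of *CG13315*, the single transcript whose late difference was distinct from its early one in the test over all probe sets (1 of 11137, 0.00898%). Its mean was 10.56 at 18 °C against 9.34 in the AA flies of the same hours, an early difference of 1.23. After the step it read 9.39, 8.75 and 9.48 in CA and 9.53, 9.26 and 9.95 in AA, lower in CA at each hour with overlap between the days (−0.37 ± 0.097, unadjusted p = 0.00337, adjusted 0.523). The late minus early difference was −1.60 ± 0.14 (limma, adjusted p = 0.00615), and the fit without the hour block gave the same value with an adjusted p of 0.997. The early value chose *CG13315* among the early transcripts, so that the test of the difference is not independent of that choice. Over all probe sets, 226 (2.03%) were higher in CA at the 3 early hours and lower at the 3 late ones, and 184 (1.65%) had the reverse course, like *DnaJ-1* and *Stip1*.

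**Figure D5:**
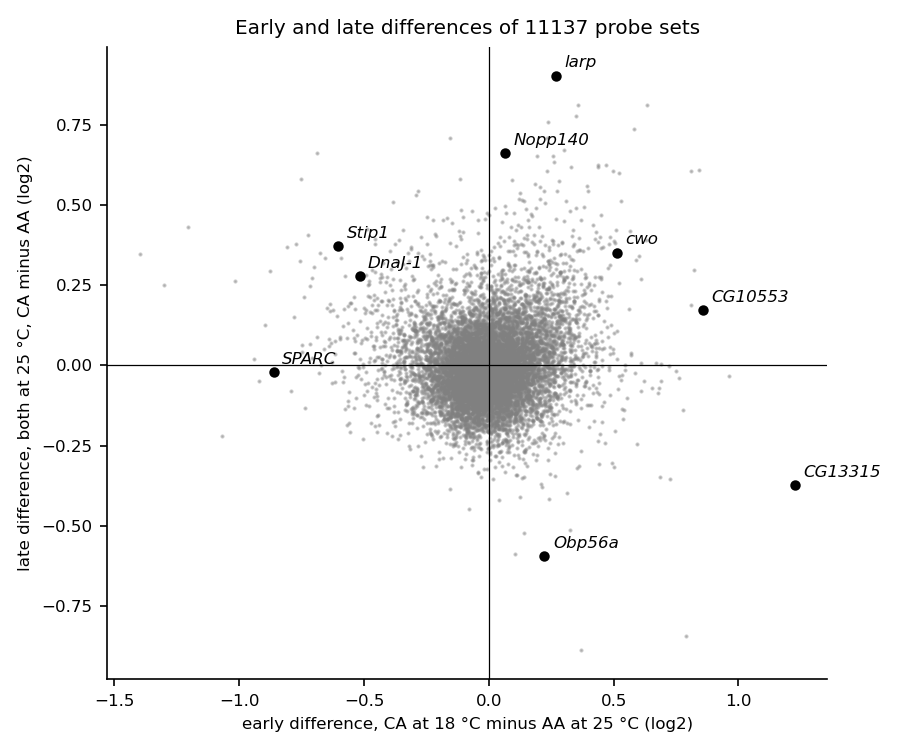
Early difference (horizontal axis, CA at 18 °C minus AA at 25 °C, log2) against late difference (vertical axis, both at 25 °C, log2) of 11137 probe sets, 1 grey point each, with 9 named transcripts in black. *CG13315* (1.23 early, −0.37 late) lies far to the lower right, *DnaJ-1* and *Stip1* to the upper left, and *Nopp140* (0.07 and 0.66) and *larp* high near the centre.

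The transcripts with the smallest p for a change of the difference per 4 h drew together or crossed during the 3 hours, and none passed the test (smallest adjusted p 0.694). *Obp99a*, an odorant-binding protein, read 7.18, 7.53 and 8.81 in CA and 8.11, 8.01 and 8.52 in AA, so that its difference went from −0.93 to 0.30 (change 0.61 per 4 h). *se* (sepia), an enzyme of eye pigment synthesis, read 5.13, 4.89 and 5.59 against 5.78, 5.04 and 5.46 (0.39 per 4 h), and *CG4752* had 0.42 per 4 h. In these CA14 lay below AA14 and CA22 above AA22. On the other side *CG31122* read 6.54, 6.53 and 6.34 against 5.05, 6.06 and 6.35 (−0.75 per 4 h), *ytr* 6.71, 6.54 and 6.07 against 5.57, 6.61 and 6.41 (−0.74 per 4 h), and *CG10874* had −0.55 per 4 h. In all 3 the lowest array was AA14.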

How the data were processed

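Heads of *y w* flies in constant darkness were profiled on Affymetrix Drosophila Genome 1 arrays, 1 for each hour. The values, as deposited, are log2 signals from robust multi-array averaging (RMA) by the authors. The RMA version and the log base are not given in the sources used here, and the base was taken from the range of the values. Precision is limited by the number of arrays. The table holds 14010 probe sets. Leaving out 44 controls gives 13966, of which 12443 have 1 gene symbol, 327 more than 1 and 1196 no symbol.

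The 12 arrays were fitted in limma 3.58.1 (R 4.3.3) with hour of day as a block of 6 levels and a CA minus AA effect for the early and for the late hours (4 residual and 5.57 prior degrees of freedom). The 6 early arrays thus add to the spread of the late comparison. A second fit added a change per 4 h. Tests were two-sided, with Benjamini-Hochberg adjustment over 11137 probe sets. The pairing comes from the hours in the labels, and its check by correlated deviations held at hours 2, 10, 18 and 22 but not at hours 6 (r = 0.003) and 14 (r = −0.128). Gene lists, 31 in number, used for each gene the probe set with the highest mean and are described by counts and medians without a set test. Arrays, lists and tests were chosen with earlier results of these data known.

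Named genes have a single symbol and are the 10 a direction with the smallest late p among those with the same sign at 3 hours, the 5 a direction with the largest such difference, the 3 a direction with the smallest p for the change, the core clock, up to 4 members of each list with the smallest p, and the 5 a direction with the smallest early p. Other genes named (markers, flight muscle genes) were chosen after their values were seen. Not every gene that the rule allows is named. Alternatives covered the filter, the normalization, the block, the arrays included, the variance model, array weights and covariates. In data simulated for the late comparison of 11137 probe sets, with independent noise, the fit recovered 99 of 100 changes of 1 and 71 of 100 of 0.5. It also called 9 of 10937 probe sets given no change. The simulated noise held no deviation shared across an array, so these rates do not give the power in the real arrays. Tables and figures were made with pandas 2.3.3, numpy 2.4.6 and matplotlib 3.10.9 in Python 3.11.15.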

Additional observations from a re-analysis of the deposited data

Results flagged for a closer look

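The late difference of *CG13315* was flagged because it differed from the early one by a test of that difference itself, with a late minus early value of −1.60 (limma, adjusted p = 0.00615). CA lay above AA at all 3 early hours and below at all 3 late hours. The value lay between −1.81 and −1.37 with an array or an hour left out. The call was lost without hour 10, 18 or 22 (adjusted p between 0.0739 and 0.0936), with the *eIF-4a* covariate (0.0927), with array weights (0.135) and in the fits without the block. Groups of 3 arrays are too small for a test of single outlying arrays.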

How the results depend on the processing

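No probe set passed in the late comparison, and no list member did, under any of the alternatives run. The number at an unadjusted p under 0.05, 775 in the fit reported, was 336 with no replicate block, 306 with the 6 late arrays and no block, 1063 with the *eIF-4a* difference as a covariate, 2170 with array weights, and 463 without hour 14. Leaving out single arrays without the block gave 150 (without CA14) to 671 (without AA18). Higher outnumbered lower, 490 to 285, but not with array weights (1013 to 1157), without CA18 (215 to 268) or without AA14 (83 to 100). The 15 early calls became 29 without a filter, 35 with quantile normalization, 1 with median centring or a variance trend, 46 with robust eBayes, 3 with the body marker covariate, and 0 with no replicate block, array weights or the *eIF-4a* covariate, and 0 to 408 with an hour or array left out (408 without hour 6, 54 without hour 14). The single late minus early call, *CG13315*, became 0 with no block, array weights or the *eIF-4a* covariate, 2 with the body marker covariate (*Stip1* joined it), and 0 to 40 with an hour or array left out (40 without hour 6). The change per 4 h had 2 calls with the body marker covariate, both on probe sets without a single gene symbol. With no replicate block the late median of the 50 transcripts higher at 18 °C was 0.0553. With an hour or array left out the medians were −0.0666 to 0.137 for these and −0.14 to 0.15 for the 50 lower.

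Some single genes changed sign. Array weights turned *CG10553* (−0.11), *SPARC* (0.19), *cry* (0.14) and *jet* (−0.12), and *ACC* turned with quantile normalization (−0.0427) and the body marker covariate (−0.00289). With an hour or array left out the ranges that crossed 0 were −0.11 to 0.13 for *ACC*, −0.17 to 0.41 for *CG10553*, −0.0933 to 0.0918 for *CG4558*, −0.32 to 0.10 for *CG4752*, −0.13 to 0.39 for *Clk*, −0.32 to 0.24 for *SPARC*, −0.18 to 0.30 for *U2af38*, −0.16 to 0.28 for *Vago*, −0.14 to 0.10 for *cry*, −0.0717 to 0.197 for the second *cwo* probe set, −0.0267 to 0.127 for *cyc*, −0.0455 to 0.104 for *jet*, −0.12 to 0.46 for the second *tim* probe set and −0.20 to 0.53 for *ytr*. The causes were not tested. With 1 array per hour and day, 29 of 100 probe sets given a change of 0.5 were missed in the simulation. Its noise was independent, so the share missed in the real arrays may differ.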
